A study of Sus scrofa with 8 samples.

Results

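The 8 arrays of synovial mesenchymal stem cells carry a number in their titles, 2 or 1, and this comparison set the 4 arrays numbered 2 against the 4 numbered 1. Each of the 4 groups of the study held 1 array of each number, so the arrays formed 4 pairs, and the 8 arrays were all those of the series. Synovial mesenchymal stem cells (SMSCs) are spindle-shaped cells cultured from the membrane that lines a joint, and they are able to turn into cartilage, bone or fat cells. Undifferentiated cells of passage 3 came from the adipose synovium (FP) and the fibrous synovium (FS) of the stifle joints of Angeln Saddleback (AS) and German Landrace (DL) pigs, which were male piglets of about 2 months. The groups were AS-FP, AS-FS, DL-FP and DL-FS. The RNA was taken from cell pools of all 3 animals of a breed, so that an array describes a pool and not an animal. Neither the labels nor the methods say what the number stands for. A separate culture, RNA preparation, labelling reaction or hybridisation run therefore cannot be told apart, and p-values measure only the spread between these arrays, which may be technical.

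Growing cells keep up transcripts of the cell cycle. Genes of the G1/S step (DNA replication and its licensing) and of G2/M (spindle, chromosome segregation and division) are transcribed in cycling cells and fall when a culture becomes crowded or short of growth factors. Spread fibroblasts also keep up contractile and actin genes, many of them under serum response factor (SRF). On Affymetrix arrays, spiked poly-A transcripts of bacterial genes are added to the RNA before labelling, and labelled hybridisation spikes are added later, to the cocktail that is put on the array.

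Values were log2 levels after robust multichip averaging (RMA), on which a difference of 1 is 2-fold. The short probes that report on 1 transcript are summarised as a probe set. All differences below are number 2 minus number 1, so a positive value means higher in number 2. RMA gave the 8 arrays nearly the same median (4.58 to 4.64), and 69 background rows had medians of 2.66 to 2.81, below which a level carries little information. As the values were scaled to a like distribution, fewer cells of a type and less RNA per cell cannot be told apart. The cells carried the labelled type's markers in part. THY1 (10.98), ITGB1 (11.4), ENG (9.20) and CD44 (9.06) lay well above background on the mean of 8 arrays, while NT5E lay close to it (3.02), and the leukocyte marker PTPRC lay below it (2.10).

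Between the numbers, 2636 of 47722 probe sets differed at an adjusted p of 0.1 or less (limma with the group as a block, Benjamini-Hochberg adjustment over all probe sets), of which 932 (1.95% of those tested) were higher in number 2 and 1704 (3.57%) lower. Of these 956 had no gene symbol, and the rest belonged to 1406 genes, 377 of them with a higher and 1049 with a lower probe set. Of the called probe sets, 2627 changed the same way in all 4 pairs, which was also true of 25.0% of all probe sets. The 4 arrays of one number lay wholly above or below those of the other for 62.4% of the called probe sets and 8.57% of all. The median size of a called difference was 0.45, and 50 were higher and 87 lower by at least 1. When each gene was represented by its brightest probe set, 236 of 13397 genes (1.76%) were higher and 817 (6.10%) lower, with a median difference of -0.03 over all genes.

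The direction of this balance depended on the scaling. Scaled to the hybridisation spikes, which moved the median of all probe sets to -0.44, 2 probe sets were higher and 101 lower. Each array was shifted by its own spike median, so DL-FP number 1 (8.63, against 9.53 to 9.98 elsewhere) was shifted most. How much of the change came from that array was not tested. Scaled to the poly-A spikes, which moved it to 0.26, 7892 were higher and 359 lower. A second quantile normalization gave 1208 higher and 1348 lower, and cyclic loess, chosen after the values were seen, gave 1198 and 1374. Without the variance trend, and with the plain linear model, 0 probe sets passed (smallest adjusted p 0.108 and 0.122), although 7183 and 6406 had an unadjusted p under 0.05, against 8100 in the limma fit.

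**Figure D1:**
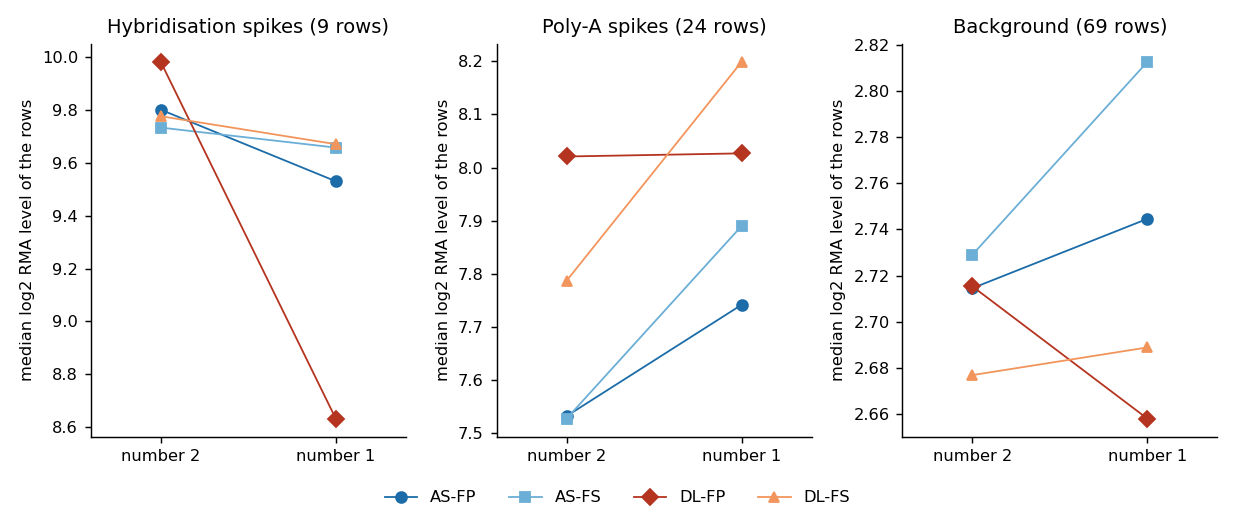
Median log2 RMA level of the hybridisation spikes, the poly-A spikes and the background rows in each array, with the arrays numbered 2 at the left of those numbered 1 and a line for each pair. The hybridisation spikes of DL-FP number 1 (8.63) lie below the other 7 arrays, and the poly-A spikes are lower in number 2 in AS-FP, AS-FS and DL-FS.

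The control rows differed between the numbers as well. The 9 hybridisation spike rows had medians of 9.80, 9.73, 9.98 and 9.78 in number 2 of AS-FP, AS-FS, DL-FP and DL-FS, against 9.53, 9.66, 8.63 and 9.67 in number 1. All 4 pairs were higher in number 2 by the median of the row differences, at 0.17, 0.08, 1.31 and 0.16, and DL-FP number 1 stood apart from the other arrays. The 24 poly-A rows had medians of 7.53, 7.53, 8.02 and 7.79 in number 2, against 7.74, 7.89, 8.03 and 8.20 in number 1. Their row differences had medians of -0.29, -0.31, -0.09 and -0.36, and 22, 22, 16 and 24 of the 24 rows were lower in number 2. The mean over the pairs was 0.43 ± 0.59 for the hybridisation spikes and -0.26 ± 0.12 for the poly-A spikes (SD, n = 4 pairs), and 0.14 for the hybridisation spikes without the DL-FP pair. A further 9 rows of the hybridisation spikes, marked r2, differed by -0.04, 0.07, 0.62 and -0.06 in the 4 pairs (exact p = 0.625). In the exact sign-flip permutation test both had a two-sided p of 0.13, the smallest that 4 pairs allow. Within the poly-A rows, the 3' rows (-0.25), the middle rows (-0.25) and the 5' rows (-0.29) moved alike, and among the transcripts phe moved by -0.36, thr by -0.25, dap by -0.23 and lys by -0.19. The 69 background rows differed by -0.001 on average, with 68 of them higher in number 2 in DL-FP and 63 lower in DL-FS (exact p = 1.0). The part that labelling or hybridisation had in the differences of the genes was not tested.

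**Figure D2:**
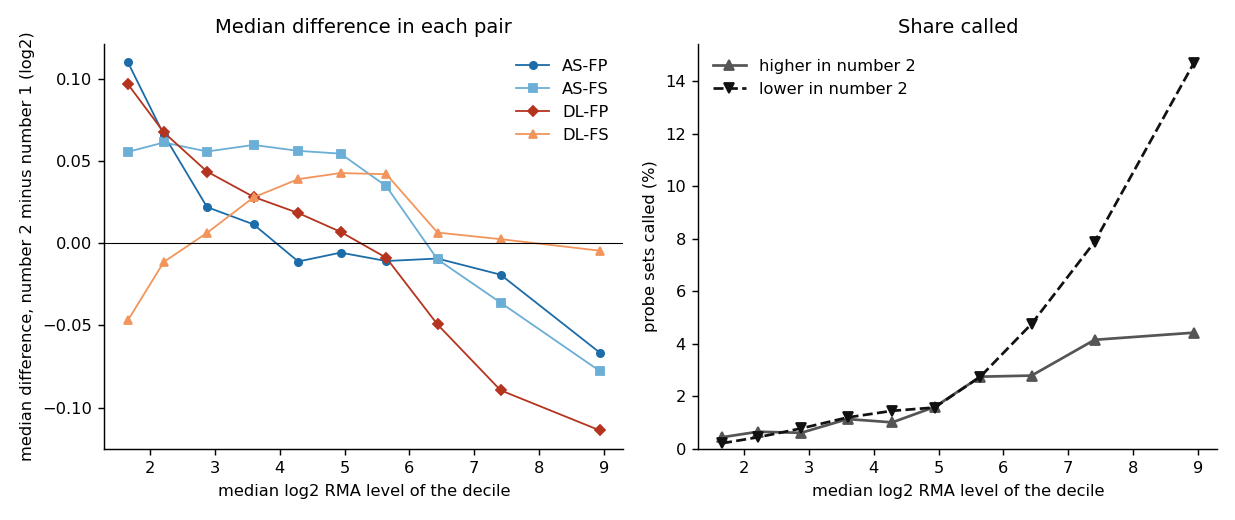
At the left, the median difference between the numbers (log2) in each decile of the mean level, for each of the 4 pairs. At the right, the percentage of probe sets of each decile that were called higher or lower in number 2, which for lower calls reaches 14.7% in the brightest decile.

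Bright probe sets were called more often. In the dimmest decile of probe sets 0.44% were higher and 0.21% lower in number 2, and in the brightest decile 4.42% were higher and 14.7% lower. The median difference followed the level too, and was 0.06 in the dimmest and -0.065 in the brightest decile over the 4 pairs. In DL-FP it was 0.10 in the dimmest and -0.11 in the brightest decile, and in AS-FP 0.11 and -0.07. In DL-FS the order was not seen, with -0.05 in the dimmest decile, 0.04 in the sixth and -0.005 in the brightest. A list of bright genes should therefore be read against genes of its own level. Among genes represented by their brightest probe set, 4.94% were lower in the eighth decile, 9.28% in the ninth and 15.95% in the brightest. Genes of a list's level are below those of the decile that holds its median level. The match is coarse in the brightest decile, which spans 8.04 to 13.8 with a median of 8.94. The contractile (10.9), collagen (10.3) and qPCR reference (11.3) lists had median levels above that and were not matched more closely.

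Genes of DNA replication and of mitosis were lower in number 2. Of 24 measured G1/S genes 14 were lower and 1 was higher, with a median difference of -0.42, and of 29 measured G2/M genes 22 were lower and none higher, with a median of -0.53 and every one of the 29 below 0. Over all genes 6.10% were lower, and among genes of their level 4.94% for the G1/S and 9.28% for the G2/M list. The G2/M list had per-array medians of 6.96, 7.04, 6.78 and 6.001 in number 2 (AS-FP, AS-FS, DL-FP, DL-FS), against 7.42, 7.45, 7.36 and 6.88 in number 1. Each pair was thus lower in number 2, and the arrays of both numbers overlapped because DL-FS was low in both. Both medians stayed below 0 under each scaling, at -0.28 for G2/M and -0.17 for G1/S with the poly-A spikes, where the median of all genes was 0.22. The hybridisation scaling lowered every difference over the 4 pairs, so it could not have raised the median of any list.

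**Figure D3:**
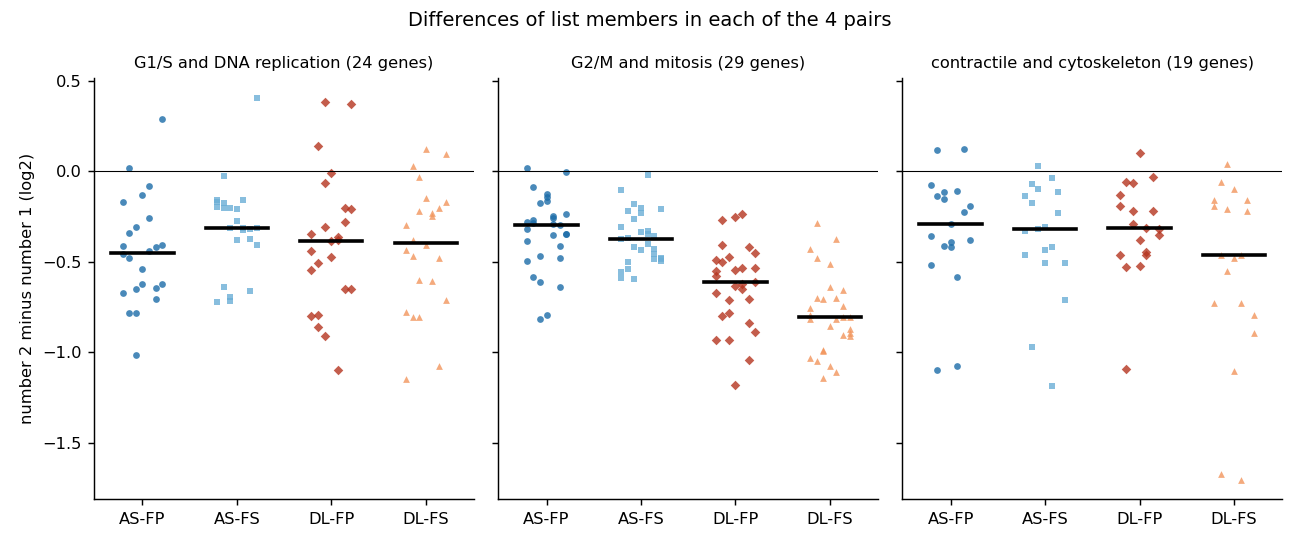
Differences between the numbers (log2) of the measured members of the G1/S, G2/M and contractile lists in each of the 4 pairs. Each point is a gene and each bar the median, which for G2/M is -0.30 in AS-FP, -0.37 in AS-FS, -0.61 in DL-FP and -0.81 in DL-FS.

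MCM7, a subunit of the helicase that unwinds DNA at replication, had levels of 7.55, 7.96, 7.47 and 6.86 in number 2 of AS-FP, AS-FS, DL-FP and DL-FS, against 8.56, 8.65, 8.38 and 7.67 in number 1. It was lower in every pair, by 0.69 to 1.01, although the arrays of both numbers overlapped (difference -0.86 ± 0.07, SE; limma adjusted p = 0.0111). The subunits MCM4 (-0.57), MCM6 (-0.39), MCM2 (-0.61) and MCM5 (-0.49) were lower too. CCNE2, the cyclin E that drives entry into S phase, had levels of 5.93, 6.18, 5.77 and 5.38 in number 2, against 6.71, 6.82, 6.63 and 6.19 in number 1, with no overlap (-0.77 ± 0.09, limma adjusted p = 0.0119). PCNA, the sliding clamp of the DNA polymerases, averaged 8.999 ± 0.26 in number 2 and 9.47 ± 0.29 in number 1 (SD, n = 4 each; -0.47 ± 0.06, limma adjusted p = 0.0173). The ribonucleotide reductase genes RRM2 (-0.52) and RRM1 (-0.30) and thymidylate synthase TYMS (-0.30), which supply deoxynucleotides, were lower as well. The exception was FEN1, a nuclease of lagging-strand synthesis, which was higher by 0.29, close to the threshold (limma adjusted p = 0.0997).

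CDK1, the kinase that starts mitosis, had levels of 6.29, 6.99, 6.51 and 5.76 in number 2, against 7.10, 7.41, 7.44 and 6.47 in number 1. It was lower in all 4 pairs by 0.42 to 0.93, with overlapping arrays (-0.72 ± 0.10, limma adjusted p = 0.0186). NUSAP1, which binds spindle microtubules, had levels of 7.50, 7.41, 7.29 and 6.78 in number 2 and 7.99, 7.998, 7.86 and 7.58 in number 1, without overlap (-0.61 ± 0.08, limma adjusted p = 0.0149). ANLN, a scaffold of the contractile ring, averaged 8.76 ± 0.20 in number 2 and 9.35 ± 0.18 in number 1 (-0.59 ± 0.07, limma adjusted p = 0.0149). Among the other called members were the mitotic kinases AURKA (-0.70) and PLK1 (-0.63), the ubiquitin-conjugating enzyme UBE2C (-0.76), the kinesin KIF11 (-0.66), cyclin B1 (CCNB1, -0.59) and the proliferation marker MKI67 (-0.45). TOP2A (-0.30), AURKB (-0.37) and BUB1 (-0.33) did not pass.

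These counts rested on all 4 pairs. Leaving out either array of DL-FP left 6 of 29 G2/M genes lower, either of AS-FS 11, either of DL-FS 12 and either of AS-FP 16. For the G1/S list the counts were 4 without DL-FP, 5 without AS-FP, 7 without AS-FS and 10 without DL-FS. The medians of both lists, below 0 in every pair, stayed below 0 in each of these fits. Over all 13397 genes the count lower fell from 817 as well. It was 135 or 137 without DL-FP, 240 or 243 without AS-FP, 261 or 262 without AS-FS and 649 or 663 without DL-FS. Those higher fell from 236 to 39 or 41, 58 or 59, 67 or 69 and 140 or 142, in that order. Later counts with an array left out should be read against these.

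Contractile and cytoskeletal genes were lower in number 2 as a further group. Of 19 measured members 11 were lower and none higher, with a median of -0.33, against 15.95% lower among genes of their level. ACTG2, a smooth muscle actin, had levels of 9.72, 9.88, 10.27 and 8.92 in number 2, against 10.82, 10.84, 11.36 and 10.59 in number 1, with no overlap between the numbers (-1.20 ± 0.11, limma adjusted p = 0.0111). ACTA2, the alpha smooth muscle actin of contractile fibroblasts, had levels of 12.25, 12.37, 12.34 and 11.86 in number 2 and 12.77, 12.83, 12.80 and 12.59 in number 1 (-0.54 ± 0.06, limma adjusted p = 0.0119). TAGLN, an actin-binding protein of smooth muscle, averaged 11.06 ± 0.23 in number 2 and 11.60 ± 0.13 in number 1 (SD, n = 4 each; -0.54 ± 0.06, limma adjusted p = 0.0140). The tropomyosins TPM4 (-1.11), TPM2 (-0.63) and TPM1 (-0.39), the filamin FLNA (-0.56), the actinin ACTN1 (-0.40) and the myosin light chain MYL9 (-0.48) were also lower. VCL (-0.09), MYH10 (-0.02) and SRF itself (-0.03) did not pass. Actin genes share much of their sequence, so probe sets of 1 actin can take up signal from another. The list's median stayed below 0 under each scaling (-0.08 with the poly-A spikes), and 7 genes were called lower without either array of DL-FP, and 7 without either of AS-FS.

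**Figure D4:**
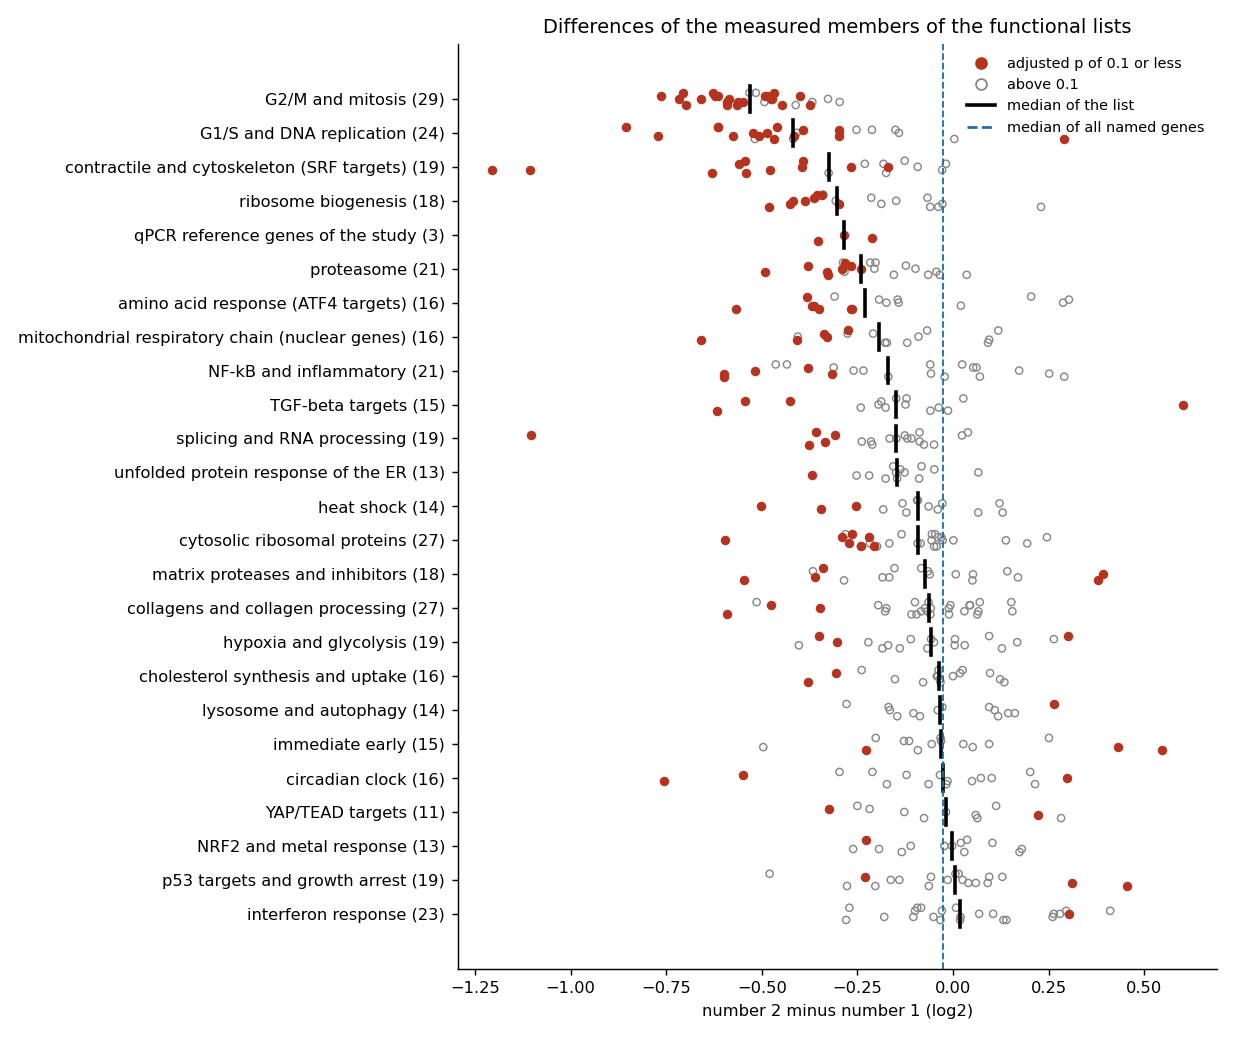
Difference between the numbers (log2) of each measured member of the 25 functional lists that had measured members, ordered by median, with the number of measured genes in brackets. Filled points passed the test, black bars are the list medians and the dashed line is the median of all named genes (-0.03). The G2/M list has the lowest median (-0.53).

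The lists of ribosome biogenesis, the proteasome, the amino acid response, ribosomal proteins, splicing and the respiratory chain had fewer members called, all of them lower. In ribosome biogenesis 8 of 18 measured genes were lower and none higher (median -0.30), among them NOLC1 (-0.48), NOP58 (-0.43), DDX21 (-0.42) and nucleolin (NCL, -0.39). In the proteasome 8 of 21 were lower and none higher (median -0.24), led by the core subunits PSMB6 (-0.49) and PSMB3 (-0.38). Among amino acid response genes under ATF4, 7 of 16 were lower and none higher (median -0.23). Of these CTH (-0.57), ASNS (-0.36) and PSAT1 (-0.35) make amino acids and SLC7A5 (-0.38) imports them, while TRIB3 (0.30) and DDIT3 (0.29), which mark strong stress, did not pass. The cytosolic ribosomal proteins had 7 of 27 lower (median -0.09), the splicing list 5 of 19 (median -0.15) and the nuclear genes of the respiratory chain 5 of 16 (median -0.19). Among genes of these levels 15.95% were lower, and 9.28% for ribosome biogenesis and the respiratory chain. Only the ribosome biogenesis median stayed below 0 under each scaling (-0.06 with the poly-A spikes), the proteasome (0.01), amino acid response (0.02), respiratory chain (0.05), splicing (0.10) and ribosomal protein (0.15) medians being above 0 there. All of these medians were below the median of all genes with the poly-A spikes, which was 0.22. These counts mostly fell when an array was left out, as those over all genes did. Without either array of DL-FP, 2 ribosome biogenesis, 1 proteasome, 2 amino acid response, 0 ribosomal protein, 1 splicing and 1 respiratory chain genes were lower, and without either of AS-FP 2, 1, 3, 0, 1 and 1. Without either array of AS-FS they were 5, 3, 3, 0, 3 and 1, and without either of DL-FS 5, 8, 6, 6, 6 and 3. Lists added after the values were seen, which support nothing by themselves, gave 4 of 8 chaperonin (CCT) genes and 4 of 19 translation factors lower. Among genes of their level 15.95% were lower. The translation factors included EIF4E (-0.46), which binds the mRNA cap, and EIF2S1 (-0.48). Without either array of DL-FP or of AS-FP 0 chaperonin genes and 2 translation factors were lower, and 1 and 2 without either of AS-FS. Without either of DL-FS 2 chaperonin genes were lower.

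The 3 reference genes that the study used for qPCR were each lower in number 2, against 15.95% lower among genes of the list's level. YWHAZ had levels of 11.07, 11.19, 11.24 and 11.23 in number 2, against 11.37, 11.55, 11.52 and 11.43 in number 1, without overlap (-0.28 ± 0.05, limma adjusted p = 0.0321). Its 2 other probe sets ran from -0.35 to 0.13, and neither was called. PPIA averaged 11.27 ± 0.11 in number 2 and 11.49 ± 0.11 in number 1 (-0.21), and HPRT1 6.43 ± 0.23 in number 2 and 6.78 ± 0.22 in number 1 (-0.35). Scaled to the poly-A spikes PPIA was 0.04, where the median of all genes was 0.22, and the HPRT1 call was lost whichever array was left out. The YWHAZ and PPIA calls were each lost without either array of DL-FP, AS-FP or AS-FS, so that 0 of the 3 genes passed there.

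Fewer genes were higher in number 2. GPNMB, a transmembrane glycoprotein of lysosomes and the cell surface, had levels of 8.95, 8.93, 9.35 and 9.79 in number 2, against 8.10, 8.19, 8.48 and 8.41 in number 1 (0.96 ± 0.10, limma adjusted p = 0.0119). The arrays of the numbers did not overlap, and both other GPNMB probe sets were higher as well (0.89 and 0.90). EMILIN2, a glycoprotein of elastic matrix, had levels of 7.08, 7.22, 5.98 and 6.53 in number 2 and 5.35, 5.53, 5.22 and 5.30 in number 1 (1.35 ± 0.16, limma adjusted p = 0.0149), while its other probe set differed by 0.02. RGS2, a regulator of G protein signalling with 1 probe set, had levels of 8.12, 7.41, 7.52 and 8.29 in number 2, against 6.51, 6.98, 7.06 and 6.69 in number 1 (1.03 ± 0.22, limma adjusted p = 0.0533), a call that was lost without either array of 3 of the 4 groups.

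The largest difference in this direction was in MAPRE2, which binds the growing ends of microtubules. Its probe set had levels of 7.40, 6.32, 7.19 and 7.14 in number 2, against 4.44, 5.74, 4.62 and 2.96 in number 1 (2.57 ± 0.47, limma adjusted p = 0.0354). The pair differences ran from 0.58 in AS-FS to 4.17 in DL-FS, and the 5 other MAPRE2 probe sets from -0.08 to 0.84, with 2 of them called higher. ARVCF, a catenin of cell junctions, was higher by 1.21 at a high level (11.5 ± 0.19 in number 2, 10.3 ± 0.63 in number 1), with 0.06 and 0.14 in its other probe sets. PSMG1 (1.002), a proteasome assembly factor, PIGT (0.89), which attaches lipid anchors to proteins, SLC7A9 (1.097), an amino acid transporter subunit, and TMEM39A (0.89) and GALNTL6 (0.88) were also among the 12 largest, and none of these 5 had a second probe set that was called higher. SLC4A4, a bicarbonate transporter, had a mean at background in number 1, which makes its difference a lower bound, at least 0.80 higher on the log2 scale, and 3 of its 5 other probe sets were called higher. The remaining one was LOC396781 (1.24), a symbol that 250 further probe sets carry, of which 5 were called higher.

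Complement and insulin-like growth factor genes were among the higher ones, in lists that were drawn up after their values were seen and that support nothing by themselves. Of 16 measured complement genes 5 were higher and none lower, against 1.76% higher over all genes and 3.02% among genes of their level. Of these, 1 was higher without either array of DL-FP or of AS-FS, or 2 without either of AS-FP or of DL-FS. C2, a protease of the classical pathway, had levels of 8.85, 8.81, 8.92 and 9.17 in number 2, against 8.02, 8.01, 8.40 and 8.64 in number 1, without overlap (0.67 ± 0.08, limma adjusted p = 0.0135), and its other 2 probe sets were higher too. C1S (0.39), the protease that activates it, the protease C1R (0.25), C4A (0.47) and the pore component C7 (0.49) were higher. C3 (0.02) was not. Of 18 insulin and insulin-like growth factor genes 3 were higher, against the same 1.76% and 3.53% among genes of their level, and 0 without either array of DL-FP. They were the binding proteins IGFBP3 (0.78) and IGFBP4 (0.44) and the protease PAPPA (0.36), which cleaves IGFBP4. Each call rested on 1 probe set, as no other of these genes was called higher. The others differed by 0.29 for IGFBP3, by -0.008 for IGFBP4 and from -1.20 to 0.215 for the 3 of PAPPA. The brightest probe sets of the ligands IGF1 (0.12) and IGF2 (0.10) did not pass, although 4 of the 13 other IGF2 probe sets were called higher. Scaled to the hybridisation spikes C1S (-0.06), C1R (-0.20), IGFBP4 (-0.01) and PAPPA (-0.09) turned to negative differences, where the median of all genes was -0.48.

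Regulatory genes moved in both directions. FOS, an immediate early transcription factor, had levels of 10.72, 10.60, 10.84 and 10.90 in number 2 and 10.47, 10.34, 10.11 and 9.95 in number 1, without overlap (0.55 ± 0.12, limma adjusted p = 0.0565). FOSB (0.43) was higher and NR4A1 (-0.23) lower, while EGR2 (-0.20), JUN (0.03) and MYC (-0.03) did not pass. In all 2 of 15 immediate early genes were higher and 1 lower (median -0.03), against 3.53% higher and 15.95% lower among genes of their level. In the circadian clock the repressor CRY1 had levels of 6.65, 6.56, 6.91 and 6.50 in number 2, against 7.45, 7.19, 7.57 and 7.43 in number 1, without overlap (-0.76 ± 0.08, limma adjusted p = 0.0119). NR1D2 was lower (-0.55) and NR1D1 higher (0.30), with 3 of 16 clock genes called. Among genes of the level of the clock list 9.28% were lower and 3.02% higher. Of 19 genes of p53 and growth arrest, SESN1 (0.45) and TP53INP1 (0.31) were higher and GADD45B lower (-0.23), while CDKN1A (-0.20) and MDM2 (0.06) did not pass. For the level of the p53 list the shares were 15.95% lower and 3.53% higher. Without either array of DL-FP 0 immediate early, 1 clock and 0 p53 genes were called, and without either of AS-FP 2, 1 and 0. Without either array of AS-FS 1 gene of each list was called, and without either of DL-FS 2, 2 and 1. Of 21 NF-kB and inflammatory genes 5 were lower and none higher, against 9.28% lower among genes of their level, and 1 was lower without either array of DL-FP or of AS-FP, or 3 without either of the other pairs. They included the chemokine CCL2 (-0.38), the cytokines IL1A (-0.60) and LIF (-0.52) and the inhibitor NFKBIA (-0.60), while IL6 (0.07) did not pass.

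Matrix genes were mostly not called. Of 27 collagen and collagen-processing genes 3 were lower (COL15A1 -0.48, COL11A1 -0.59 and LOXL2 -0.35) and none higher, against 15.95% lower among genes of their level, and the main collagens COL1A1 (-0.06), COL1A2 (-0.08) and COL3A1 (-0.01) did not pass. That list's median was -0.06, and it was above 0 with the poly-A spikes (0.18), the second quantile normalization (0.01) and cyclic loess (0.02). With the poly-A spikes the median of all genes was 0.22. Among matrix proteases and inhibitors, MMP14 (0.38) and ADAMTS5 (0.39) were higher and TIMP1 (-0.36), PLAUR (-0.55) and PLAU (-0.34) lower. Of 15 TGF-beta targets POSTN was higher (0.60) and TAGLN, SMAD7 (-0.62) and ID1 (-0.43) lower. Among genes of their level 15.95% were lower and 3.53% higher, and for the proteases and inhibitors, of which 18 were measured, 9.28% and 3.02%. The other functional lists had 3 or fewer members called, with medians from -0.15 to 0.02.

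Over 13 lists of cell type markers with 134 measured entries, 1 was higher and 10 lower, shares near the 1.76% and 6.10% over all genes. Of these, 6 lists, those of adipocytes, macrophages and leukocytes, endothelial cells, Schwann and nerve cells, epithelium, and erythrocytes, had no call. FABP4 (-0.59) and LIPE (-0.81) of the adipocyte list and PRG4 (-0.47) of the lining list did not pass. Those called lower were CD44 (-0.37) of the stem cell markers and UGDH (-0.41) of the lining fibroblasts. In the sublining and adventitial fibroblasts they were MFAP5 (-0.52), PI16 (-0.76) and DPT (-0.41). SPP1 (-0.58) of the osteoblasts, COL11A1 of the chondrocytes and ACTA1 (-0.69) of the skeletal muscle cells were lower too. Of the pericyte and smooth muscle list, ACTA2 and TAGLN were lower and ABCC9 (0.83) was higher. PI16 had levels of 7.81, 9.21, 8.16 and 10.05 in number 2, against 8.93, 9.76, 9.02 and 10.57 in number 1, lower in each pair but overlapping, as the groups differed by more than the numbers (limma adjusted p = 0.0170).

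The largest lower differences were mostly carried by 1 probe set of a gene. SGMS2, which makes sphingomyelin and had 1 probe set, had levels of 6.61, 6.90, 6.68 and 6.69 in number 2, against 8.16, 7.91, 8.18 and 8.06 in number 1 (-1.36 ± 0.10, limma adjusted p = 0.0078), without overlap. NFATC2, a calcium-regulated transcription factor, was lower in both of its probe sets (-1.34 and -1.22). TPR, a nuclear pore protein, had levels of 3.59, 3.65, 3.47 and 3.33 in number 2 and 5.32, 5.14, 5.43 and 5.95 in number 1 (-1.95 ± 0.19, limma adjusted p = 0.0117). The other 3 TPR probe sets ran from -0.19 to 0.08. ROCK1 (-1.50; others -0.40 to -0.22), the phosphatase subunit PPP2CA (-1.39; other 0.03), the late endosomal GTPase RAB7A (-1.32; other -0.05), USP53 (-1.33; other -0.16) and ZSWIM6 (-1.33; others -0.27 and -0.18) had the same form. KIF1B (-1.39), a kinesin, and ACTC1 (-1.48), the cardiac actin, each had 2 further probe sets called lower. FAM53C and the class I histocompatibility gene SLA-1 had means below background in number 2, with 2 of the 4 arrays above it for each, which makes their differences bounds, at least 1.461 and 1.340 lower on the log2 scale, and SLA-1 belongs to a family of near-identical genes.

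Agreement between probe sets of a gene was limited more widely. Of 938 genes with a called probe set and at least 1 more, 185 had another called in the same direction and 20 one called in the other, and 66.5% of their 2601 other probe sets had the same sign as the called one. Of 1858 probe sets whose IDs name a microRNA of pig, cow, human or mouse, 47 were higher and 33 lower, against 1.95% and 3.57% of all probe sets. Of the 1008 of them with a mean above background, 25 were higher and 25 lower. A separate fit of only the 36215 probe sets of any kind above background called 1188 higher and 2097 lower.

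**Figure D5:**
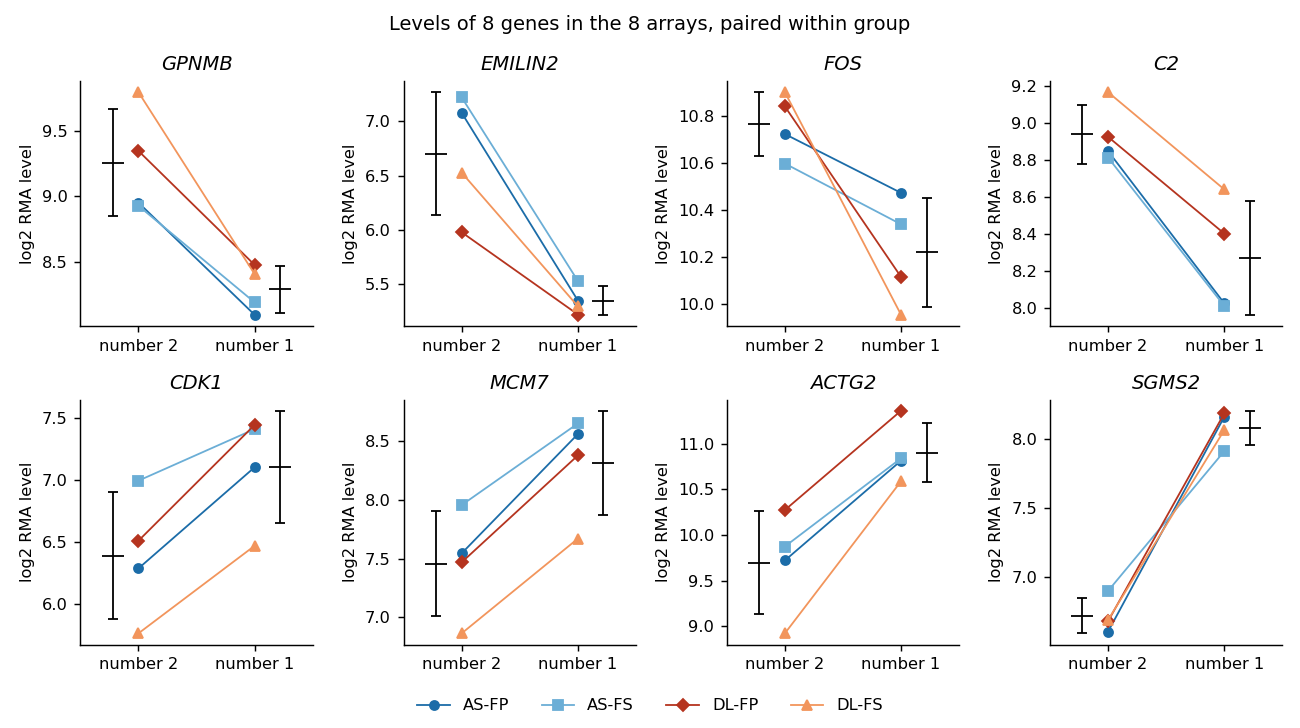
Log2 RMA levels of 8 genes in the 8 arrays, with number 2 at the left of number 1, a line for each pair, and the mean with SD of the 4 arrays of each number beside them. GPNMB, EMILIN2, FOS and C2 are higher and CDK1, MCM7, ACTG2 and SGMS2 lower in number 2 in every pair.

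The difference between the numbers was also compared between the breeds and between the tissues. By the breed (AS pairs minus DL pairs) 0 of 47722 probe sets passed (0%), with 2677 (5.61%) at an unadjusted p under 0.05, and by the tissue (FP pairs minus FS pairs) also 0 (0%), with 2158 (4.52%). The lowest adjusted p by breed belonged to PGK1, a glycolytic enzyme, in 1 of 9 probe sets. It had levels of 4.46 and 4.51 in number 2 and 6.68 and 6.87 in number 1 of AS-FP and AS-FS, but 7.02 and 6.23 in number 2 and 6.66 and 6.11 in number 1 of DL-FP and DL-FS (difference of the differences -2.53 ± 0.19, limma adjusted p = 0.101). TRPM8 (2.46), STOX1 (2.34), POPDC3 (3.36) and NSMCE4A (3.87) followed with adjusted p of 0.335 to 0.406, and by tissue ITGA1 (1.80), a dim PCNA probe set (2.53), LRCH2 (-2.08), AFF2 (-1.58) and SLA-DMA (2.28) each had 0.694, so none of these passed. In the G2/M list 11 of 29 genes had an unadjusted p under 0.05 by breed, against 5.61% of all probe sets, with a median of 0.32 for AS minus DL pairs. Its medians were -0.30 and -0.37 in the AS pairs and -0.61 and -0.81 in the DL pairs, and none of the 29 passed the adjustment. For the G1/S list 2 of 24 and for the contractile list 2 of 19 had such a p.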

How the data were processed

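RNA of pooled SMSCs was measured on 8 Porcine Snowball arrays. The authors labelled the RNA, read the arrays with GCOS 1.1.1 and deposited log2 values after RMA in Expression Console. The table holds 47845 rows. The methods' filters on detection and on SD were not applied here. From it, 123 control rows were set aside and 47722 probe sets entered a limma fit (version 3.58.1, R 4.3.3) with a mean for each group and a term for the number (residual df 3, prior df 5), variances trended on the mean, and Benjamini-Hochberg adjustment at 0.1, the methods' threshold. Differences between breeds and tissues used the interaction (residual df 2). limma was tested on simulated data. Control rows were compared by the exact sign-flip permutation test over 4 pairs. All columns belonged to labelled samples, and the labels name no batch. Signal over background stands in for depth, and precision is limited by how many arrays there were.

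Names came from the platform annotation for 25868 probe sets, with 428 symbols updated, 0 with several and 21854 with none. In lists, a gene is its brightest probe set. Named genes were the 12 largest called differences in each direction with the same sign in all pairs and a mean above background in 1 number, up to 4 called members per list by adjusted p, and the 5 smallest p per interaction. Others named beside a list's count were chosen after their values were seen. Where a number's mean was at background, its arrays were set to the higher of their value and their background median. The members and the 44 lists (5 of them drawn up from these values, 1 of which is not reported here, and 1 of replication-dependent histones not measured) were chosen with earlier results of these data known. Alternatives were the fit without group block, without trend, a plain linear model, 2 filters, 4 scalings, a threshold of 0.05, list genes as the mean of their probe sets, and leaving out each array. Cyclic loess, and the poly-A scaling and leave-one-out fits of the lists, were added after the values were seen. Python 3.11.15 with numpy 2.4.6, pandas 2.3.3 and matplotlib 3.10.9 did the rest. No sequences or positions were used here.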

Additional observations from a re-analysis of the deposited data

Results flagged for a closer look

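In 10 of 179 sets of 4 values, 1 value lay far from the other 3, where chance alone would set apart about 1 set in 20. The hybridisation spikes of DL-FP number 1 had a level of 8.633, against 9.53 to 9.67 in the other arrays numbered 1, and the DL-FP pair differed by 1.31, against 0.08 to 0.17 in the other pairs. The DL-FP pair also stood apart in the medians of the unfolded protein response (-0.4468, others -0.10 to -0.05) and of cholesterol synthesis and uptake (-0.203, others 0.004 to 0.02). The DL-FS pair stood apart in ROCK1 (-2.527, others -1.21 to -1.10), in ZSWIM6 (-2.783, others -0.93 to -0.74) and in the median of the contractile list (-0.4643, others -0.32 to -0.29). TMEM39A differed by 1.558 in the AS-FP pair (others 0.60 to 0.72), and the AS-FS pair stood apart in NR1D1 (0.4718, others 0.23 to 0.25) and CFL2 (-0.3897, others -0.31 to -0.30).

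In 5 measures both pairs of one breed or tissue moved one way and both pairs of the other moved the opposite way, and these differences were not tested. The background rows differed by 0.1356 between the FP and the FS pairs. The immediate early median was -0.03 in the AS and 0.04 in the DL pairs (-0.06775). Between FP and FS pairs, the medians differed by -0.1563 for the synovial lining fibroblasts (-0.11 and 0.05), by -0.1816 for skeletal muscle cells (-0.14 and 0.04) and by -0.1462 for Schwann and nerve cells (-0.06 and 0.09).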

How the results depend on the processing

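With the replicate number as the block, no paired analysis was possible because the replicate number is itself the difference compared. The arrays were paired by group instead, and the fit reported above is that paired analysis. Against 932 probe sets higher and 1704 lower, 313 and 522 were called with no group block, 0 and 0 without the variance trend, 0 and 0 with the plain linear model, 468 and 785 among 15281 probe sets with an SD above 0.25 (fewer tested), 2 and 101 with hybridisation scaling, 7892 and 359 with poly-A scaling, and 375 and 778 at an adjusted p of 0.05. Leaving out 1 array, and with it what its pair adds, gave 174 to 600 higher and 312 to 1324 lower, fewest without an array of DL-FP (174 and 185 higher, 314 and 312 lower). Called by breed were 1 probe set with the SD filter and 0 to 17 without 1 array (17 and 16 without AS-FP), and by tissue 0 to 5 (5 without DL-FS). Members lower were 0 and 2 of the G1/S list, 0 and 7 of the G2/M list and 2 and 3 of the contractile list with hybridisation and poly-A scaling. Over all 13397 genes 12 and 78 were lower with these scalings. Without 1 array, 4 to 10, 6 to 16 and 7 to 10 members of these lists were lower, against 135 to 663 over all genes. Of 127 named genes 41 were called whichever array was left out, and 17 were lost each time. With hybridisation scaling TP53INP1 (-0.14), FOSB (-0.018), KDM3A (-0.15), DDX58 (-0.15), AMOTL1 (-0.23), MMP14 (-0.072), ADAMTS5 (-0.057), CTSA (-0.19), NR1D1 (-0.15), C1S (-0.056), C1R (-0.20), IGFBP4 (-0.0057) and PAPPA (-0.088) changed sign, and with poly-A scaling GADD45B (0.016), NR4A1 (0.020), TXNRD1 (0.019), PPIA (0.036), CCT7 (0.013) and EEF1D (0.020). The mean of the background rows ran from -0.042 without an array of DL-FP to 0.025 without one of AS-FS, and was also above 0 (0.018) without one of DL-FS. The hybridisation scaling shifted DL-FP number 1 most. The median of all genes was -0.48 with hybridisation and 0.22 with poly-A scaling. Apart from the scalings, which shift all probe sets, and the smaller sets tested, the cause was not tested.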
